A study of Mus musculus with 6 samples.

Results

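The cytosolic ribosomal proteins are the protein components of the ribosome outside the mitochondria, and their mRNAs were followed here in mouse embryonic fibroblasts (MEFs) with and without Rnf40. Members were taken by symbol, as Rpl or Rps followed by a number, with the stalk proteins Rplp0, Rplp1 and Rplp2 and with Rpsa, while the Rps6k kinases were left out. The rule took 82 of the 29955 genes in the deposited table, of which 31 belonged to the small subunit, 48 to the large subunit and 3 to the P stalk. Rpl3l, a muscle paralogue of Rpl3 with normalized counts between 0 and 4.08, had too few reads to be tested, which left 81 members. Translation was not measured, so all values are levels of mRNA.

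A ribosome consists of a small subunit that decodes the mRNA and a large subunit that joins amino acids, and each subunit carries its own set of proteins in a fixed stoichiometry. The mRNAs of these proteins are among the most abundant in growing cells and typically begin with a C followed by a run of pyrimidines, the 5′ terminal oligopyrimidine (TOP) tract, through which mTOR signalling and Larp1 control their translation. Transcription of the genes is known to respond to growth signals and to Myc.

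Total RNA came from primary MEFs at passage 3, in 3 cultures each labelled Rnf40+/+ and Rnf40-/-. The MEFs of the study derive from embryos homozygous for an Rnf40 allele with loxP sites around exons 3 and 4, which also carry the ubiquitously expressed Rosa26-CreERT2. Deletion was induced with 250 nM 4-hydroxytamoxifen (4-OHT) for 5 days, followed by 3 days without it. The sources used here do not state whether the Rnf40+/+ cultures received 4-OHT or carried Cre, so loss of Rnf40, Cre activity and 4-OHT cannot be told apart. Rnf40 encodes a subunit of the ligase that places ubiquitin on histone H2B. For each library the deposited values are its reads scaled by a single size factor, here called normalized counts. The difference between genotypes was tested for 16378 genes with limma on log2(normalized count + 1) with Benjamini-Hochberg adjustment, and a gene counts as lower or higher when its adjusted p was under 0.05. No label names separate embryos, so the p-values measure the spread between these cultures, which may be technical.

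Between 17053436 and 26344170 reads per library fell on genes, with the deepest library in the Rnf40+/+ group. Counted over all its exons, Rnf40 itself fell to 40.5% of its Rnf40+/+ mean, from normalized counts of 1278, 1195 and 1096 to 439, 519 and 487. The fibroblast markers of the labelled cell type were present, and their sum over 10 genes was 690335 to 758108 in Rnf40+/+ and 414472 to 417722 in Rnf40-/- libraries. Macrophage markers summed to 5387 to 9132 against 3518 to 3854, with 7 of 8 listed markers in the table. Of these 7, 1 was lower and 2 were higher (14.3% and 28.6%), where 24.1% and 23.3% of all genes tested were. Lyz2, which carried the sum, fell by 1.18, while Ptprc and Cd14 rose by 1.37 and 0.66. Cd68, Csf1r and Itgam had log2 fold changes of -0.22, -0.21 and -0.34 and Emr1 one of 0.15, and none of these passed. The 5 endothelial markers summed to 51.0 to 146 against 179 to 283. Of the 4 tested, 3 were higher (75%), Pecam1, Cdh5 and Kdr, by 2.58, 3.26 and 1.56, where 23.3% of all genes were higher. Cdh5 was near the limit of detection in Rnf40+/+, with 2.39, 5.10 and 0.80 normalized counts. Tek did not pass, and with 115, 11.2 and 16.0 in Rnf40+/+ it carried the sum of 146. Sums of 6 epithelial markers were 33.7 to 107 against 39.7 to 64.2, and those of 5 muscle markers were 118 to 434 against 29.2 to 46.3, with Myod1, Myf5 and Ckm at or under 3 reads in every library. In total, 12 of 12 markers of cycling cells were lower in Rnf40-/- MEFs, where 24.1% of all genes tested were, with a median log2 fold change of -2.16. Fewer cells of a type and less RNA per cell cannot be told apart in these bulk samples, and the part of these shifts in the results for ribosomal protein mRNAs was not tested.

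To show what the TOP tract looks like in these genes, the first bases of 5 members with different responses are given from RefSeq (GRCm38.p6), each as 10 bases before and 20 bases from the annotated start, with capitals for an uninterrupted pyrimidine run of 5 or more that begins with C at the start. Rps6 lies at chr4:86857348-86857377 on the minus strand, Rps10 at chr17:27635225-27635254 on the minus strand, Rplp2 at chr7:141447641-141447670 on the plus strand, Rpl10 at chrX:74270806-74270835 on the plus strand and Rpl22l1 at chr3:28805498-28805527 on the plus strand.
Rps6: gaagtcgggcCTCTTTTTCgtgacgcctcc
Rps10: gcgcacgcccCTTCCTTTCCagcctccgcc
Rplp2: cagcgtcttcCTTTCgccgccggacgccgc
Rpl10: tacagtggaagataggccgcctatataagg
Rpl22l1: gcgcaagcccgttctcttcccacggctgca

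Of 61 members with an annotated start in the table used, 13 (21.3%) had such a run exactly at the start, against 410 of 14772 genes (2.78%). Annotated starts can miss the true start by some bases. When a C followed by 6 or more pyrimidines could begin up to 10 bases on either side of the start, 30 of the 61 members (49.2%) and 14.5% of all genes held a run. Rpl22l1 held one under this wider rule and Rpl10 did not. The windows were read on the transcribed strand only, and a missing match says only that these letters are not in this window. The median log2 fold change was -0.18 for the 13 members with a run at the start and -0.32 for the 47 tested members without one, and -0.29 against -0.33 under the wider rule.

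The mRNAs of most cytosolic ribosomal proteins were lower in Rnf40-/- than in Rnf40+/+ MEFs, by a moderate amount. Of 81 members tested, 48 (59.3%) were lower and 0 were higher, where 24.1% of all genes tested were lower and 23.3% were higher. The log2 fold change was negative for 77 members and positive for 4, Rps24, Rpl22, Rpl10l and Rpl34, whose differences did not pass the test. The median log2 fold change of the members was -0.32, with quartiles of -0.46 and -0.18, against a median of -0.0035 and quartiles of -0.35 and 0.32 over all genes. In 48 members every Rnf40-/- library lay below every Rnf40+/+ library, and in 0 members every one lay above, compared with 28.7% and 27.8% of all genes. Under the thresholds of the study (mean above 15, p under 0.05 and a log2 fold change past 1 in either direction), 2 members were lower, Rpl22l1 and Rpl10, and 0 were higher, where 5.70% and 4.25% of all genes passed.

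**Figure D1:**
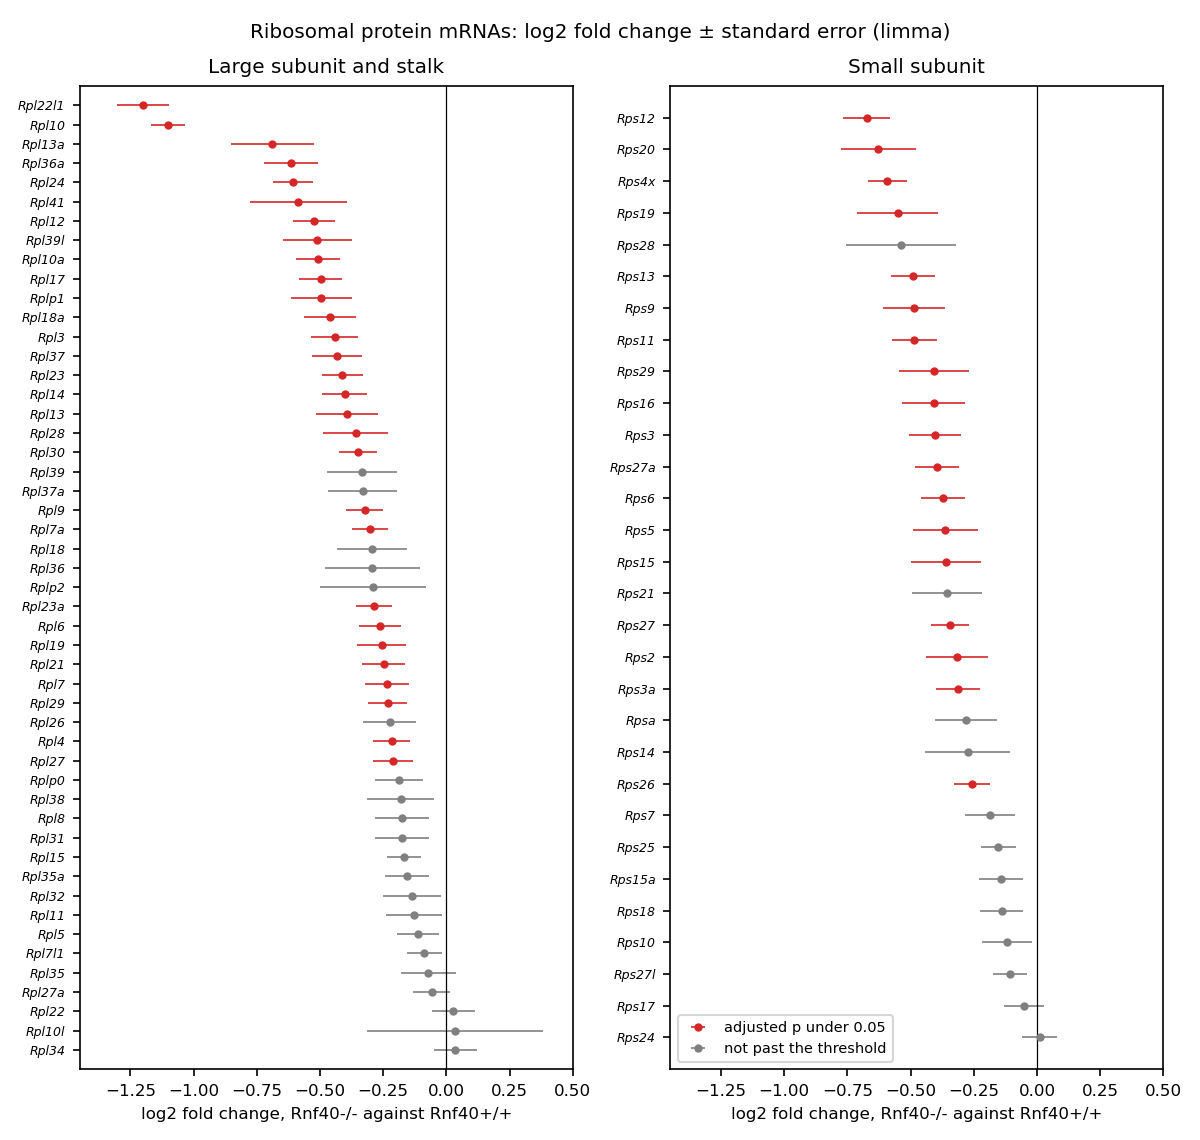
Log2 fold change in Rnf40-/- against Rnf40+/+ MEFs (horizontal axis) for 80 of the 81 members tested, with bars for the standard error of limma, separately for the large subunit with the stalk and for the small subunit. Red points have an adjusted p under 0.05; 47 are red, all left of 0, with Rpl22l1 and Rpl10 past -1 and the third-lowest member at -0.69.

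Much of this shift rested on a pair of libraries. The pair was picked after values were seen, as the extremes for the members, so leaving it out had to shrink the shift. Rnf40+/+ replicate 3, the deepest library, had the highest value of the 6 libraries for 75 of the 82 members. Rnf40-/- replicate 2 had the lowest for 77 of the 81 members tested. The median log2 difference of the members from the Rnf40+/+ mean was -0.13, -0.09 and 0.19 with Rnf40 and -0.30, -0.48 and -0.21 after its deletion, while over all genes it was between -0.01 and 0.01 in every library. Replicates 1 and 2 of Rnf40+/+ thus lay closer to replicate 3 of Rnf40-/- than to replicate 3 of their own group. Without Rnf40+/+ replicate 3, 38 members were lower (46.9%) with a median of -0.19, where 23.7% of all genes were lower. Without Rnf40-/- replicate 2, 30 members were lower (37.0%) with a median of -0.25, against 20.6% of all genes. Without both libraries, 29 members were lower (35.8%), against 21.1% of all genes, 64 had a negative log2 fold change and the median shrank to -0.13. Leaving out Rnf40+/+ replicate 1 instead gave 57 lower members (70.4%) with a median of -0.39, against 23.4% of all genes. In 30 members the call held when any single library was left out, and the share of all genes whose call held in this way is not given here.

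Reads on all members took 3.96%, 3.94% and 4.87% of Rnf40+/+ and 3.70%, 3.40% and 3.90% of Rnf40-/- reads on genes. The means were 4.25% ± 0.53 and 3.67% ± 0.25 (SD, n = 3), and the highest Rnf40-/- library lay below the lowest Rnf40+/+ library by less than either SD. The difference of -0.59 percentage points became -0.15 without both libraries named above. Reads on the small subunit were 0.634 ± 0.015 times those on the large subunit in Rnf40+/+ and 0.622 ± 0.003 times in Rnf40-/- libraries (SD, n = 3), so the balance between subunits differed by less than the SD in Rnf40+/+.

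**Figure D2:**
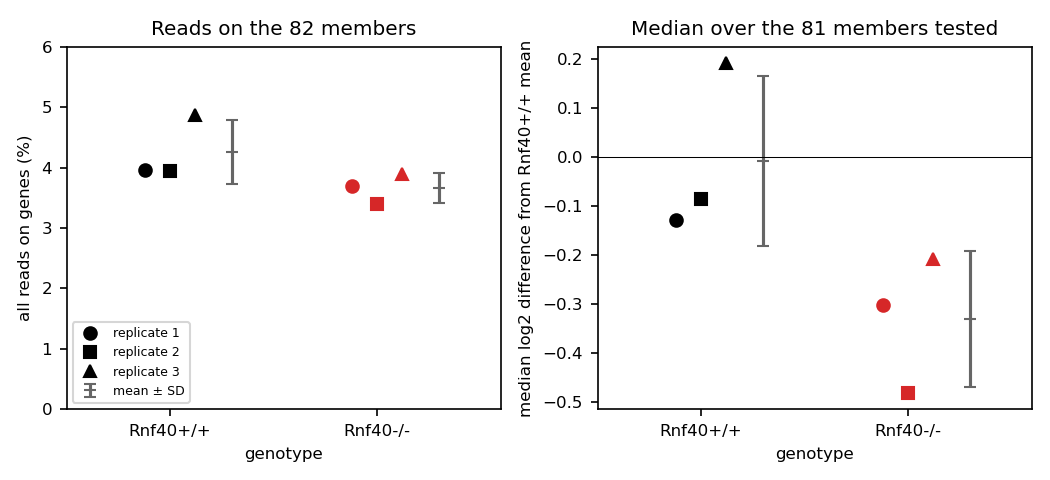
Left, percent of all reads on genes that fell on the 82 members in each library; right, median over the 81 members tested of the log2 difference from the Rnf40+/+ mean, both by genotype, with marker shapes for replicate numbers and grey bars for mean ± SD (n = 3). Rnf40+/+ replicate 3 stands highest at 4.87% and 0.19, and Rnf40-/- replicate 2 lowest at 3.40% and -0.48.

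How far a member rose in Rnf40+/+ replicate 3 differed widely among members. Its log2 difference from the mean of replicates 1 and 2 was largest for Rps28 (1.02), Rplp2 (0.97), Rpl41 (0.84) and Rpl36 (0.84), and near 0 for Rpl15 (0.02). Over the 78 members with a mean above 1000 and an annotated coding length, the difference fell with coding length, with a Spearman rho of -0.34 and a Pearson r of -0.41, a description across genes that share the same libraries. The median difference was 0.39 for the 26 members with 156 to 399 coding nucleotides, 0.27 for those with 408 to 579 and 0.26 for those with 585 to 1260. The fold change between genotypes did not follow length in the same way, with medians of -0.31, -0.31 and -0.31, while without replicate 3 they were -0.13, -0.18 and -0.21.

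**Figure D3:**
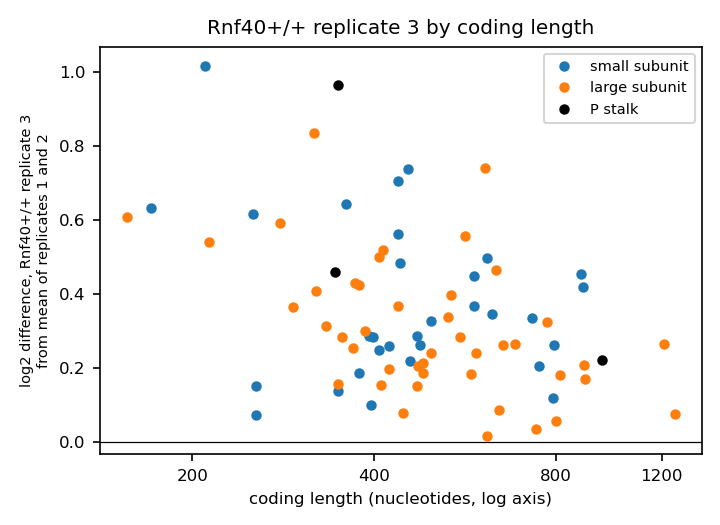
Log2 difference of Rnf40+/+ replicate 3 from the mean of replicates 1 and 2 (vertical axis) against coding length on a log axis, 1 point for each of the 78 members, coloured by subunit. Short members reach the highest values, and all 78 points lie above 0.

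Rpl10 had one of the largest falls of any member. It encodes a large-subunit protein that joins late in assembly of the subunit, and the gene (ENSMUSG00000008682) is on the plus strand at chrX:71516151-71518474 of mm9. Its normalized counts were 18814, 18597 and 19858 in Rnf40+/+ and 8670, 8625 and 9425 in Rnf40-/- libraries. The groups lay far apart, with 46.7% of the Rnf40+/+ mean left and a log2 fold change of -1.10 ± 0.07 (SE, limma, adjusted p = 1.65e-07). Without both libraries named above it was -1.05, with an adjusted p of 3.02e-06 in limma. Its share of the reads on all members, in which the size factors cancel, was 2.33%, 2.23% and 1.94% in Rnf40+/+ and 1.22%, 1.34% and 1.25% in Rnf40-/- libraries.

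Rpl22l1, an alternative form of the large-subunit protein Rpl22, fell by 1.20 on the log2 scale (SE 0.10, limma, adjusted p = 2.20e-06). In mm9 the gene is at chr3:28704358-28706274 on the plus strand. Its normalized counts were 1032, 870 and 1131 in Rnf40+/+ and 462, 410 and 440 in Rnf40-/- libraries, so each Rnf40-/- value was far below the lowest Rnf40+/+ value. Rpl22 itself, which binds RNA as well as the ribosome, had 5133, 5500 and 6548 against 5815, 5572 and 6046, and its groups overlapped with a log2 fold change of 0.03 ± 0.09 (limma, adjusted p = 0.812). Within each library, Rpl22l1 stood at 20.1%, 15.8% and 17.3% of the Rpl22 value in Rnf40+/+ and at 7.94%, 7.36% and 7.28% in Rnf40-/- MEFs. The coding sequences of both genes share 72.7% of aligned bases.

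**Figure D4:**
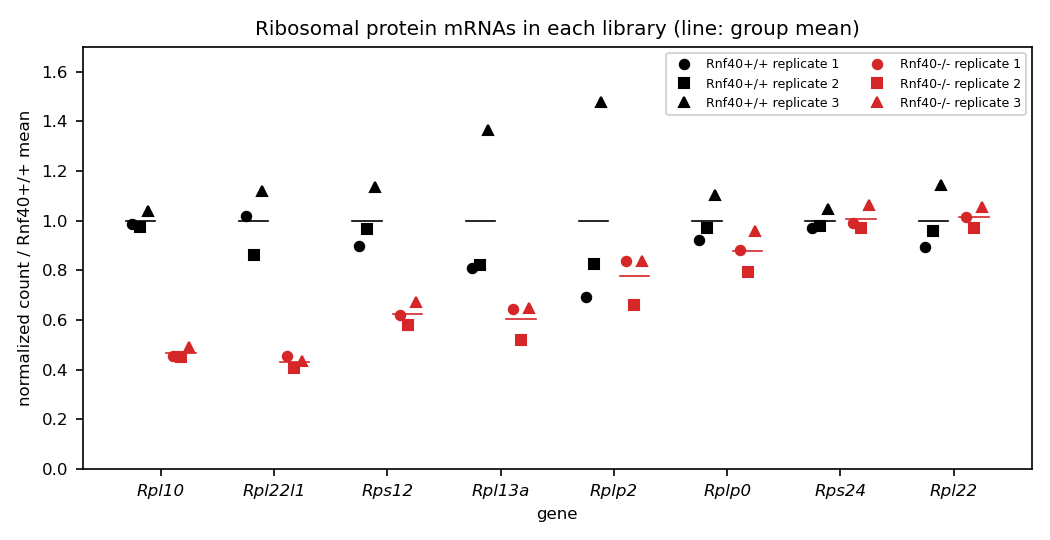
Normalized counts of 8 members in each of the 6 libraries, divided by the Rnf40+/+ mean of the gene (vertical axis, from 0), with black symbols for Rnf40+/+, red for Rnf40-/-, shapes for replicate numbers and lines for group means. Rpl10 and Rpl22l1 separate widely, Rpl13a and Rplp2 have a high Rnf40+/+ replicate 3, and Rplp0, Rps24 and Rpl22 overlap between genotypes.

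The next largest falls were smaller. Rpl13a, a large-subunit protein also known from a complex that silences translation of inflammatory mRNAs, had 8920, 9065 and 15025 normalized counts in Rnf40+/+ and 7086, 5736 and 7148 in Rnf40-/- libraries. Its Rnf40+/+ replicate 3 stood apart, and the log2 fold change of -0.69 ± 0.17 (limma, adjusted p = 0.00477) became -0.44 without that library. Rps12, of the beak of the small subunit, had 17401, 18741 and 21990 against 12054, 11213 and 13064. It kept most of its fall without that library, at -0.58 against -0.67 (limma, adjusted p = 9.1e-05 with all libraries). Rps20, of the head of the small subunit, had 9728, 11056 and 16202 against 8071, 7067 and 8295, and Rpl36a had 4168, 4146 and 5521 against 3077, 2711 and 3189. Their log2 fold changes were -0.63 and -0.61, and no value of either overlapped between groups, although that of Rps20 was -0.41 without Rnf40+/+ replicate 3.

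Across the small subunit, 19 of 31 proteins (61.3%) were lower and 0 higher, beside 24.1% and 23.3% of all genes. The median of these proteins was -0.36, and -0.20 without Rnf40+/+ replicate 3. Without Rnf40-/- replicate 2, 11 were lower (35.5%), against 20.6% of all genes. Rps4x, whose gene is X-linked, had 17179, 18625 and 19441 normalized counts against 11760, 11643 and 13268, a log2 fold change of -0.59 with no overlap. Rps19, known for its mutations in Diamond-Blackfan anaemia, fell by 0.55 (limma, adjusted p = 0.0134). Rps19 was uneven in Rnf40+/+, with 7690, 7244 and 12186 normalized counts against 6397, 5237 and 6442, and had a log2 fold change of -0.32 without replicate 3 of Rnf40+/+ and no call without replicate 2 of Rnf40-/- (limma, adjusted p = 0.0733). Rps3, at the entry of the mRNA channel, fell by 0.40 but did not pass without both libraries named above (limma, adjusted p = 0.0552). Rps27a, made as a fusion with ubiquitin, fell by 0.40, and Rps6, the substrate of S6 kinases, by 0.37, with values of 14724, 15849 and 17629 against 12363, 11270 and 13655. Rpsa, also known as a laminin receptor, had 22860, 24926 and 31926 against 21915, 19020 and 24407. Its groups overlapped and its log2 fold change of -0.28 did not pass (limma, adjusted p = 0.0787), with -0.14 without Rnf40+/+ replicate 3 (0.245), -0.38 without replicate 1 (0.0198) and -0.37 without Rnf40-/- replicate 3 (0.0498). Rps28 had a log2 fold change of -0.54, close to that of Rps19, yet did not pass (limma, adjusted p = 0.06), with values of 3405, 4126 and 7593 against 3532, 2870 and 3442, and its log2 fold change was -0.20 without Rnf40+/+ replicate 3 (0.107) and -0.78 without replicate 1 (0.00352). Rps24 had 18104, 18279 and 19514 against 18461, 18062 and 19782, with a log2 fold change of 0.01 ± 0.07 (limma, adjusted p = 0.916). As a share of all member reads, Rps24 was 2.25%, 2.19% and 1.91% in Rnf40+/+ and 2.61%, 2.81% and 2.62% in Rnf40-/- libraries, so its weight within the group was larger in each Rnf40-/- library while its own level overlapped.

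Across the large subunit, 28 of 47 proteins (59.6%) were lower and 0 higher, beside 24.1% and 23.3% of all genes. The median of these proteins was -0.29, and -0.18 without Rnf40+/+ replicate 3. Without Rnf40-/- replicate 2, 18 were lower (38.3%), against 20.6% of all genes. Rpl24, which forms a bridge to the small subunit, had 7994, 8200 and 9346 normalized counts against 5684, 5113 and 5970, a log2 fold change of -0.61. Rpl3, close to the centre where peptide bonds form, fell by 0.44, with 14609, 15898 and 18331 against 11785, 10933 and 13169. Rpl41, the smallest ribosomal protein, had 11405, 11963 and 20975 against 10758, 7776 and 10136. Its fall of 0.58 (limma, adjusted p = 0.0257) rested in large part on Rnf40+/+ replicate 3, without which it was -0.30, and the call was lost without Rnf40-/- replicate 2 (adjusted p = 0.128 in limma) or replicate 3 (0.05). Rpl4, a long protein reaching towards the exit tunnel, fell by 0.22, with 20750, 22159 and 22601 against 18236, 17965 and 20238, a call lost when either Rnf40+/+ replicate 2 or 3 or Rnf40-/- replicate 1 or 2 was left out (limma, adjusted p from 0.0514 to 0.14). Rpl34 had 4236, 4359 and 5231 against 4586, 4491 and 5051, a log2 fold change of 0.04, and did not pass.

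Rpl5 and Rpl11 enter the large subunit together with 5S rRNA and, like several other ribosomal proteins, can bind Mdm2, the ligase for p53. Rpl5 had 16110, 17794 and 19063 normalized counts against 16202, 15220 and 17574, and Rpl11 had 7858, 7931 and 10405 against 8097, 6992 and 8747. In both, the groups overlapped, and the log2 fold changes were -0.11 and -0.13 (limma, adjusted p = 0.288 and 0.363). Of the 10 listed members known to bind Mdm2, 4 were lower, Rpl23, Rps3, Rps27a and Rps27, and 0 were higher, where 24.1% of all genes were lower. The median of -0.25 became -0.08 without Rnf40+/+ replicate 3 and -0.03 without both libraries named above.

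The P stalk recruits translation factors to the large subunit, and all 3 of its mRNAs had lower means in Rnf40-/- MEFs. Of the 3, 1 passed the test, where 24.1% of all genes were lower. Whether the 3 differ from each other was not tested. Rplp1 had 24863, 26715 and 35483 normalized counts against 21204, 18269 and 21778. It fell by 0.49 (limma, adjusted p = 0.00515). Its partner Rplp2 had 3362, 4011 and 7174 against 4059, 3207 and 4067. Replicate 3 of Rnf40+/+ alone lay above the Rnf40-/- values, and the log2 fold change of -0.29 (limma, adjusted p = 0.283) became 0.03 without it, while without Rnf40+/+ replicate 1 it was -0.51 and passed (0.0319). Rplp0, the base of the stalk, had 34799, 36582 and 41600 against 33264, 29926 and 36046, with overlap and a log2 fold change of -0.19 ± 0.09 (limma, adjusted p = 0.122).

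Rplp0, also called 36B4, is amplified by a primer pair of the study's quantitative PCR, shown in full here because the pair can be placed on the transcript. The forward primer matches bases 428 to 447 of the transcript Rplp0-001 of mm9 and spans exons 3 and 4 within chr5:116011002-116011115, the reverse primer matches bases 501 to 520 in exon 4 at chr5:116011169-116011188, and the product of 93 bases lies in the coding sequence.
36B4 forward: ttggccaataaggtgccagc
36B4 reverse: ctcgggtcctagaccagtgt

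Levels per kilobase of coding sequence spread far more between members than between genotypes. In Rnf40+/+ MEFs they ran from 2496 for Rpl7l1 to 84116 for Rplp1 with a median of 20332, over the 78 members with a mean above 1000 and an annotated coding length, which Rpl41 lacks, and the coefficient of variation was 48.1%. In Rnf40-/- MEFs the median was 15922 and the coefficient of variation 46.9%. Rps12 stood at 48565 per kilobase in Rnf40+/+ and 30351 in Rnf40-/- MEFs, while Rps24 stood at 47051 and 47395, so that these neighbours in the order of Rnf40+/+ levels were far apart in Rnf40-/- MEFs.

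Several members exist as a core protein and a like-named paralogue, many of them known for tissue-restricted expression. Of the 6 paralogues tested, which include Rpl36al outside the rule, 2 were lower (33.3%), Rpl22l1 and Rpl39l. Of the 9 listed core proteins 6 were lower (66.7%), where 24.1% of all genes were lower. Rpl39l, a paralogue of the exit-tunnel protein Rpl39 known from testis, had 402, 319 and 289 normalized counts against 255, 210 and 239, a fall of 0.51 (limma, adjusted p = 0.00854). Rpl39 had 3609, 4123 and 5882 against 3440, 3370 and 3776 and did not pass, at -0.33 (limma, adjusted p = 0.0651), with -0.13 without Rnf40+/+ replicate 3 (0.177) and -0.48 without replicate 1 (0.00487). Rps27l, a target of p53, had 3547, 3632 and 3986 against 3492, 3307 and 3564, with a log2 fold change of -0.11 that did not pass, whereas Rps27 fell by 0.35, with 7379, 6145 and 7082 against 5447, 5159 and 5574. The Rps27l value was 48.1%, 59.1% and 56.3% of that of Rps27 in Rnf40+/+ and 64.1%, 64.1% and 64.0% in Rnf40-/- libraries, higher in each Rnf40-/- library. Rpl36al likewise stood at 24.8%, 23.2% and 25.9% of Rpl36a in Rnf40+/+ and at 35.9%, 32.6% and 30.6% in Rnf40-/- libraries. The ratios of Rpl39l to Rpl39, Rpl7l1 to Rpl7 and Rpl10l to Rpl10 overlapped between genotypes. Rpl39l stood at 11.2%, 7.74% and 4.91% of Rpl39 in Rnf40+/+ and at 7.41%, 6.22% and 6.33% in Rnf40-/- libraries. No p is given for these ratios, since the smallest two-sided value that permuting 3 libraries against 3 allows is 0.1.

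In the remaining pairs the paralogue overlapped between genotypes. Rpl7l1 had 1713, 1959 and 1877 normalized counts against 1746, 1678 and 1793 and did not pass, while Rpl7 fell by 0.23, close to the threshold (limma, adjusted p = 0.0437), and lost the call when either Rnf40+/+ replicate 2 or 3 or Rnf40-/- replicate 1 or 2 was left out (limma, adjusted p from 0.102 to 0.195). Rpl10l, an intronless copy of Rpl10 known from testis, had 406, 126 and 204 against 148, 285 and 268, a spread within each genotype larger than the difference between them. Rpl26, whose listed paralogue was not analysed here, had a log2 fold change of -0.22 that did not pass (limma, adjusted p = 0.103), with -0.10 without Rnf40+/+ replicate 3 (0.338) and -0.33 without replicate 1 (0.0152). Coding sequences of the measured pairs shared from 64.8% of aligned bases (Rpl7 and Rpl7l1) to 87.9% (Rpl36a and Rpl36al), and Rpl39 and Rpl39l shared an identical run of 38 bases.

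Reads of ribosomal protein genes can also match pseudogenes. Searching the coding sequences of 81 members with one in the annotation against mm9, 75 had at least 1 further place with 95% or more identity over at least 90% of the sequence, with a median of 5 places and 55 for Rpl21. Rpl10 had 9 and Rpl22l1 had 2. How such reads were assigned is not given in the sources used here, so the level of any single member is uncertain to that extent. The median log2 fold change was -0.31 for the 75 tested members with such copies and -0.36 for the 5 without. Of 3 listed pseudogenes, 2 were lower, where 24.1% of all genes were lower. Rpl13a-ps1 fell by 0.63 and Rps19-ps3 by 0.57, and the call of Rps19-ps3 was lost without Rnf40-/- replicate 2 (limma, adjusted p = 0.0537).

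Of the ribosomal proteins whose symbols fall outside the rule, Fau, a fusion of a ubiquitin-like protein with Rps30, fell by 0.44 (limma, adjusted p = 0.037), and Gnb2l1, the scaffold protein Rack1 of the small subunit, by 0.28 (limma, adjusted p = 0.0185). Fau had 5183, 5430 and 8675 normalized counts against 4975, 4034 and 4843, with a high Rnf40+/+ replicate 3, and its log2 fold change was -0.21 without that library. The call of Fau was lost without that library or any single Rnf40-/- library (limma, adjusted p from 0.0503 to 0.158), and that of Gnb2l1 without Rnf40-/- replicate 1 or 2 (0.0656 and 0.104). The 4 members on chromosome X, Rpl10, Rps4x, Rpl36a and Rpl39, had a median of -0.60, with 3 lower. Over the 493 genes of that chromosome that were tested, the median was -0.10 and 32.5% were lower, where 24.1% of all genes tested were lower.

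Other genes of the ribosome and of translation, listed beside the background of 24.1% lower and 23.3% higher over all genes tested, included calls in both directions. Of 17 TOP mRNAs that do not encode ribosomal proteins, 4 were lower and 2 higher, with a median of -0.16. Eef1g, a subunit of the exchange factor for elongation, fell by 0.84, with 18934, 18957 and 20832 normalized counts against 10718, 10167 and 11844. Pabpc1, the poly(A)-binding protein, rose by 0.42, with 23177, 23755 and 20318 against 29180, 29782 and 30897. Hnrnpa1, a splicing regulator, fell by 0.95, and Eif3h, a subunit of an initiation factor, rose by 0.25. The median of this list in Rnf40+/+ replicate 3 was -0.01 relative to the Rnf40+/+ mean, beside 0.10 for mitochondrial ribosomal proteins, 0.13 for TOP transcripts that host small nucleolar RNAs, 0.10 for RNA polymerase I genes, 0.16 for fibroblast markers and 0.19 for the members. Other lists lay outside this range, with 0.33 for ribosomal protein pseudogenes, 0.30 for macrophage and 0.29 for epithelial markers. Translation factors were at -0.04 and regulators at -0.05. All 4 tested non-coding TOP transcripts that host small nucleolar RNAs were lower, with a median of -0.63, among them Snhg1 (1321, 1256 and 1298 against 670, 683 and 535) and Snhg12, which fell by 0.84.

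In translation factors, 10 of 36 were lower and 8 higher with a median of -0.08, shares of 27.8% and 22.2% near those of all genes. Among them Eif1, which helps to select the start codon, fell by 0.66 and Eif3i rose by 0.36. Of 46 genes for ribosome biogenesis, 12 were lower and 11 higher with a median of -0.06, shares of 26.1% and 23.9% near those of all genes, and 7 were higher without Rnf40-/- replicate 1. Nop56, a core protein of small nucleolar particles, had 2902, 2747 and 2629 normalized counts against 1642, 1647 and 1636, and Bop1, which processes rRNA of the large subunit, had 1218, 1429 and 1347 against 2720, 2678 and 2908. The nucleolar GTPases Gnl3 and Gnl2 moved in opposite directions, at -0.69 and 0.54.

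RNA polymerase I, which transcribes rRNA, had 3 of 20 listed genes lower and 5 higher (15% and 25%), beside 24.1% and 23.3% of all genes. Ubtf, which opens rRNA genes for it, fell by 0.86 and Taf1d, of its promoter selectivity factor, by 0.81, while its initiation factor Rrn3 rose by 0.68 and its termination factor Ttf1 by 0.66. The 22 listed regulators were genes of the Myc and mTOR pathways with the transcription factors Gabpa, Yy1 and Tbp. Of the 22, 2 were lower and 10 higher (9.09% and 45.5%), beside 24.1% and 23.3% of all genes. Gabpa, Yy1 and Tbp were each among the higher. The median of the list was 0.16, and 6 were higher without Rnf40-/- replicate 1. Myc had 2096, 1973 and 1739 normalized counts against 2956, 3107 and 2837, a rise of 0.62 (limma, adjusted p = 4.72e-05), opposite in sign to the members. Mxd3, of the family that competes with Myc for Max, fell by 1.26. Mxd4 of that family was higher, at 0.21 (limma, adjusted p = 0.0461), and Mxd1, at -0.17, did not pass. The mTOR complex subunit Mlst8 fell by 0.70, and Tsc1, which restrains mTOR, rose by 0.45. Mtor itself (0.40), Rps6kb1 (0.35), Rptor (0.22) and Tsc2 (0.20) were also higher. Mitochondrial ribosomal proteins, a separate set of genes for a separate ribosome, had 18 of 76 lower (23.7%) and 12 higher with a median of -0.03. That share was near the 24.1% of all genes, the median was 0.05 without Rnf40+/+ replicate 3, and 6 or 7 were higher when any single Rnf40-/- library was left out. In them, Mrps16 fell by 0.71 and Mrpl53 by 0.57, while Mrpl47 rose by 0.52 and Mrpl55 by 0.41.

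**Figure D5:**
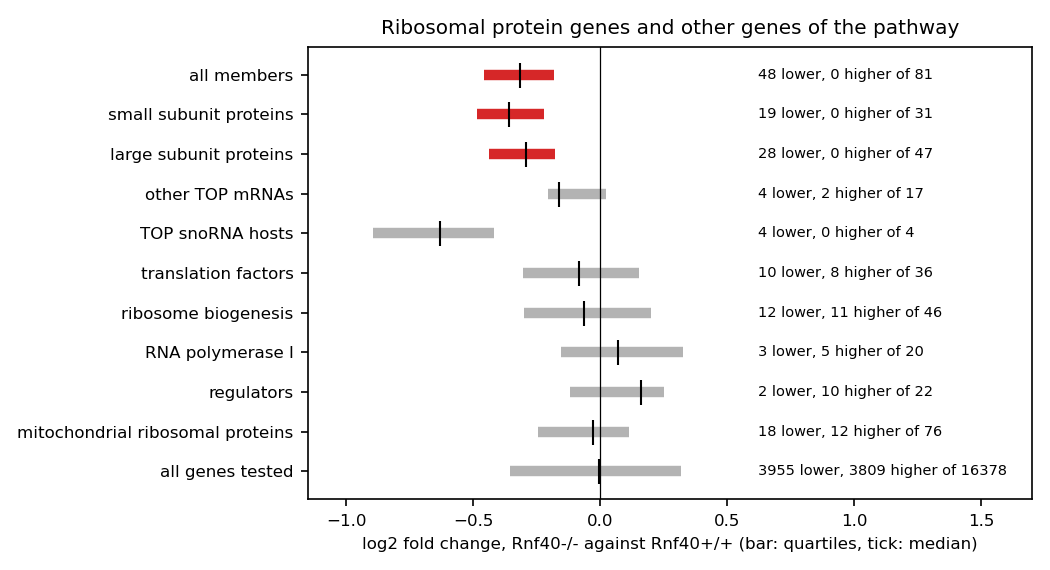
Median (tick) and quartiles (bar) of the log2 fold change in Rnf40-/- against Rnf40+/+ MEFs for the members, in red, and for other gene lists of the pathway and all genes tested, in grey, with counts of lower and higher genes at the right. The members lie at -0.32 with 48 lower and 0 higher, whereas biogenesis, translation factors and mitochondrial ribosomal proteins lie near 0 with calls in both directions.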

How the data were processed

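RNA was sequenced with a directional kit from 3 Rnf40+/+ and 3 Rnf40-/- cultures. The authors mapped reads to mm9 and normalized them with DESeq (their processing notes name Bowtie2 2.1.0 and DESeq 1.14.0), and each deposited value is a normalized signal, the reads of a gene over the size factor of its library. The counting tool is not given in the sources used here. Reads were recovered from the step of 1 read, with 100% of values whole within 0.01. A value of 3 reads, taken as the limit of detection, corresponded to 2.40 to 3.58 normalized counts, and 7410 genes had no read in any library.

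The members and gene lists were chosen with earlier results of these data known. Genes passing filterByExpr of edgeR 4.0.16 on recovered reads were tested with limma 3.58.1 (lmFit, and eBayes with trend) after log2 transformation with a pseudocount of 1, which understates the change of genes with few reads, with genotype as the only term. Errors are SD over libraries or the SE of limma. The genes named are the 6 members with the largest fall and rise among those called, paralogues and their core proteins, a set of core members, the 5 with the highest mean, up to 2 called genes in each direction per other list, and Rnf40. Rps28, Rpl23, Rpl36, Rpl15, Rpl34, Rpl22, Rps10, Lyz2, Ptprc, Cd14 and the library pair left out together were chosen after values were seen. Cd68, Csf1r, Itgam, Emr1, Pecam1, Cdh5, Kdr, Tek, Gabpa, Yy1, Tbp, Mtor, Rps6kb1, Rptor, Tsc2, Mxd1 and Mxd4 were also named after values were seen and were not followed singly. Coding lengths came from GENCODE on mm9 and the starts from RefSeq. BLAST 2.17.0 was used for further places in the genome. Alternatives were other scalings, edgeR, DESeq2 1.42.0, pseudocounts of 0.1 and 10, other filters, a replicate block and each library left out. Within a genotype each pair of libraries differed by more than sampling noise. Some genes are not reported here. The study's other experiments were not analysed.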

Additional observations from a re-analysis of the deposited data

How the results depend on the processing

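The count of lower members was 48, and 45 with TMM scaling, 49 with upper-quartile scaling, 45 with edgeR, 40 with DESeq2, 46 and 48 with pseudocounts of 0.1 and 10, 43 with no filter and 47 with a mean above 15. Over all 16378 genes, 3955 were lower, and in the same order 3914, 3984, 3940, 3726, 3947 and 3982. With no filter 3844 of 22545 genes were lower, and with a mean above 15, 3932 of 15528. Leaving out each library in turn gave 30 to 57 lower members, with 30 without Rnf40-/- replicate 2, medians of -0.39 to -0.19 and differences in the share of reads of -0.75 to -0.28 percentage points. Over all genes, 20.4% to 23.7% were lower in these fits. Without both Rnf40+/+ replicate 3 and Rnf40-/- replicate 2, chosen after seeing the data, 29 members were lower, against 21.1% of all genes. The median was then -0.13 and the share of reads differed by -0.15 percentage points. No member was higher under any of these settings, and Rpl10 and Rpl22l1 passed the thresholds of the study under each. DESeq2 moved the lower calls of the other TOP mRNAs to 7 and those of ribosomal proteins outside the rule to 1. The cause of these shifts was not tested.

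With the replicate number as a block, 58 members were lower and 0 higher. Over all 16378 genes, 4196 were lower and 4021 higher with the block, against 3955 and 3809 without it. Same-numbered libraries did not deviate together (correlations of 0.01, 0.02 and 0.02), so the numbers were not taken to pair them. Of 72 genes followed singly, 61 by the rule and 11 after values were seen, 57 kept their call in every fit and 15 gained or lost it in at least 1. The SD between replicates of the members' median log2 difference was 0.16 with 3 libraries per genotype.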

Other observations

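Genes often used to normalise quantitative PCR, chosen after their values were seen, differed between the genotypes. Actb, a cytoskeletal actin, had 122623, 126279 and 111497 normalized counts in Rnf40+/+ and 85920, 83573 and 94225 in Rnf40-/- libraries, a fall of 0.45 on the log2 scale (limma, adjusted p = 0.00222). Gapdh, a glycolytic enzyme, fell by 0.79 (limma, adjusted p = 6.87e-05), and Hprt, of purine salvage, rose by 0.50 (limma, adjusted p = 7.49e-05), with no overlap between groups in either. Rplp0 (36B4), with a log2 fold change of -0.19 and overlapping groups, differed least from 0 of these 4 genes, and Rps24 had a log2 fold change of 0.01.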
